A study of Caenorhabditis elegans with 5 samples.

Results

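The Mad, Max and Mondo network of Caenorhabditis elegans consists of 5 genes here, mdl-1, mxl-1, mxl-3, mml-1 and mxl-2, of 19973 nuclear protein-coding genes in the annotation. They were looked up in a ChIP-seq map of ATTF-4, a protein with an AT-hook, the short motif by which some chromosomal proteins contact DNA in the minor groove. The genes were chosen from the measured peak signals of these same lists, so every count of their peaks below is a description, and no test was run on them. All libraries came from intact larvae at L4, the stage before adulthood, of the transgenic strain OP219, unc-119(ed3) III; wgIs219, which expresses C05D10.1 (attf-4) with a GFP and FLAG tag at its C-terminus. Both sexes and all tissues were pooled, and the antibody is labelled only as attf-4. There was 1 group, with 3 biological replicates sequenced as 5 libraries: replicates 2 and 3 had 2 technical libraries each and replicate 1 had 1. The design therefore holds no comparison between conditions.

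The proteins of this network are basic helix-loop-helix leucine zipper factors that bind DNA as pairs. MDL-1 is the Mad-like factor and pairs with MXL-1, a Max-like factor, and such pairs are known mainly as repressors. MML-1, the worm relative of the mammalian glucose-responsive factors MondoA and ChREBP, pairs with MXL-2, its Mlx-like partner. MXL-3 is another Max-like factor, known in fed worms as a repressor of lysosomal lipase genes. Pairs of this family recognise the E-box CACGTG, and the Mad and Mondo pairs are known to have opposing effects on worm lifespan.

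A pooled peak, called by the authors on the alignments of all 3 replicates with a control, was assigned to a gene when its summit lay from 2000 bp upstream of the annotated 5′ end to 1000 bp past the 3′ end. Under this rule the 5 genes held 16 of the 24897 pooled peaks, of which 24869 were nuclear. The authors' final set, thresholded by the irreproducible discovery rate between replicates, held 173 peaks, 147 of them nuclear, and only mdl-1 among the 5 genes had one. Each peak has a signal value from the authors' peak caller, whose scale is not stated, and a −log10 q-value. Signals were therefore compared and ranked within a list, 1 being the strongest, and were not averaged over replicates. Background regions were kept beside peaks in the pooled and replicate lists, and the −log10 q-value of the pooled list had a median of 0.144. Having a pooled peak is common: 72.7% of nuclear protein-coding genes had one under the same rule, and 1.03% had a final-set peak.

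The sequences at 6 peaks are shown because 5 of them carry the letters that the network's own proteins recognise and the sixth, a strong peak of mxl-3, carries none. Each runs 80 bp to either side of the summit, is read on the strand of its gene from the ce11 genome (WBcel235, the RefSeq copy), and has each E-box CACGTG in capitals. The first lies 87 bp upstream of mdl-1 at chrX:6742184-6742344, plus strand, and belongs to the final set. The second lies 1118 bp upstream of mdl-1 at chrX:6741153-6741313, plus strand. The third lies in intron 2 of mdl-1 at chrX:6742949-6743109, plus strand. The fourth lies 672 bp upstream of mxl-3 at chrX:13351396-13351556, minus strand. The fifth lies 1896 bp upstream of mml-1 at chrIII:7376547-7376707, minus strand. The sixth lies 365 bp past the 3′ end of mxl-3 at chrX:13349194-13349354, minus strand.
mdl-1 promoter peak: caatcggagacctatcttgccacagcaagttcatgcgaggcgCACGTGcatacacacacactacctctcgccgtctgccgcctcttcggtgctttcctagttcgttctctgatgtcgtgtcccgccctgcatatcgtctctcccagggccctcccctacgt
mdl-1 upstream peak: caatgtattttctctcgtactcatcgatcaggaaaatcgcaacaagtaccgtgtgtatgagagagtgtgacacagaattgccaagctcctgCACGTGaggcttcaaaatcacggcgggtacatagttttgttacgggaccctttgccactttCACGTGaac
mdl-1 intron peak: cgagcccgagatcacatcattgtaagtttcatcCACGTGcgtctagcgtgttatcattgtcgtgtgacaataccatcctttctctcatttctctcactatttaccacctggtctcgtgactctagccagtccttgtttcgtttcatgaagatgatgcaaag
mxl-3 upstream peak: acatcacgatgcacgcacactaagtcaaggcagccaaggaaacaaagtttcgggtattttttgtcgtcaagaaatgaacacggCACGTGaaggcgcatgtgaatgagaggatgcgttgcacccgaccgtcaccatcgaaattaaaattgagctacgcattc
mml-1 upstream peak: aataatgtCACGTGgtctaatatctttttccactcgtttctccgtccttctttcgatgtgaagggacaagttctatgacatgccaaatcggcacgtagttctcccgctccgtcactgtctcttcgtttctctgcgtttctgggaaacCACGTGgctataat
mxl-3 downstream peak: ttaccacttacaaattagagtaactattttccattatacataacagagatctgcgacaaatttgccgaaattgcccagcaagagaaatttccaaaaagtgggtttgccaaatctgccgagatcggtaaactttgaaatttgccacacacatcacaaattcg

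The 5 genes differed widely in what they held. mdl-1 and mxl-3, both on the X chromosome, held 5 pooled peaks each, mml-1 held 3, mxl-1 held 2 and mxl-2 held 1, against a median of 1 peak per gene over all nuclear protein-coding genes. Of the 16 peaks 6 lay upstream, 4 past the 3′ end, 4 in exons and 2 in introns. Their median pooled signal was 12.7, against 9.35 over all nuclear pooled peaks, and 13 of the 16 lay above that median. The strongest peak of each gene had a signal of 34.4 at mdl-1, 18.9 at mxl-3, 13.2 at mxl-1, 11.8 at mml-1 and 7.30 at mxl-2, against a median of 10.8 over the 14523 genes with a pooled peak. The first was higher than 99.2% of those genes, the second than 91.7%, and the last than 4.16%. The Mad-like gene and one Max-like gene thus stood high in the list, while the Mlx-like gene stood near its lower end. This last position depended on the window: with 5000 bp upstream, mxl-2 was higher than 42.5% of genes with a pooled peak. These positions are what the genes were chosen from and support nothing further.

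**Figure D1:**
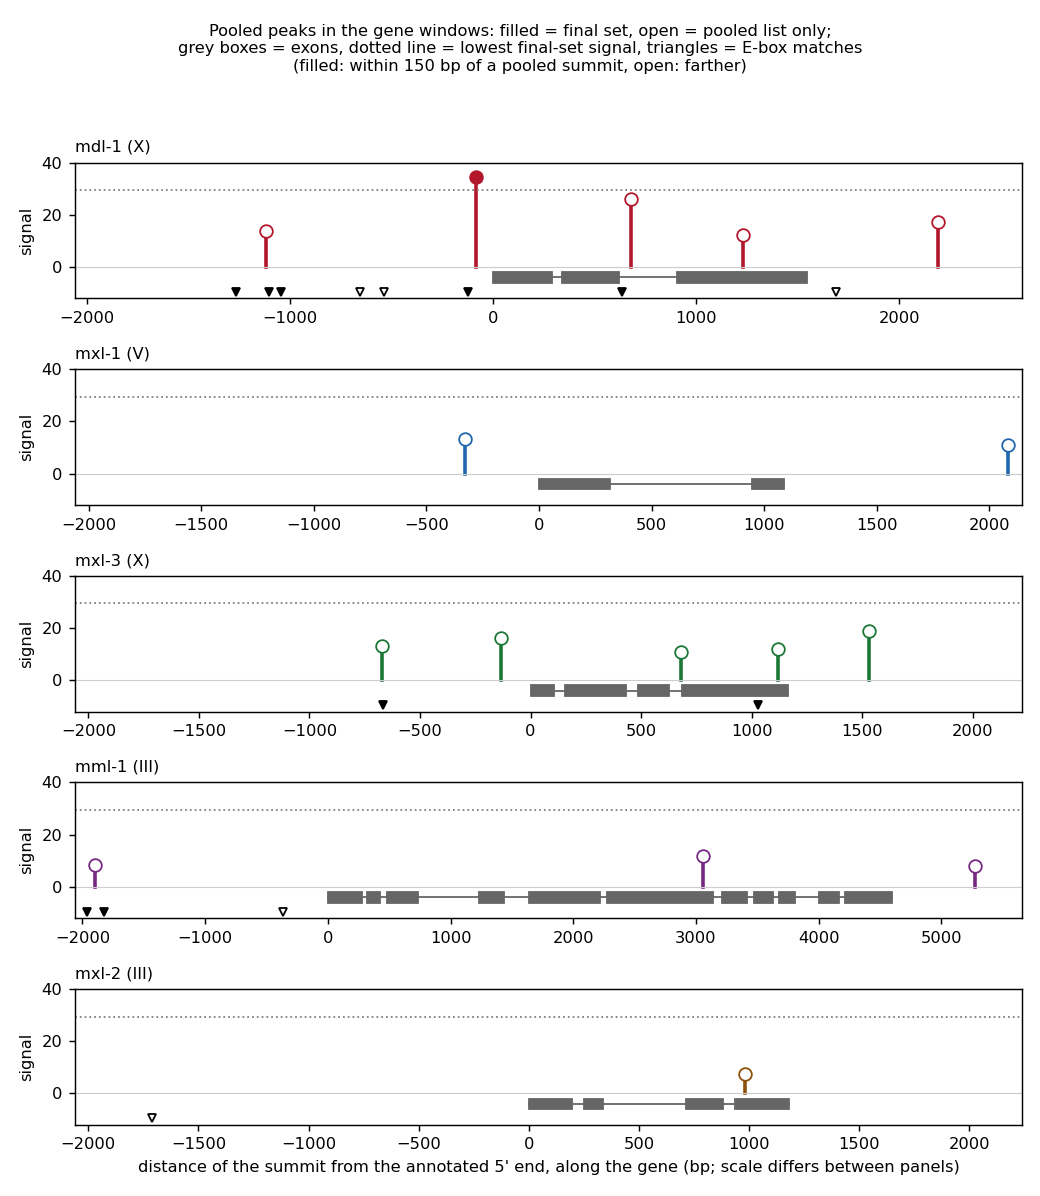
Pooled signal (vertical axis, authors' units) of each pooled peak against the distance of its summit from the annotated 5′ end (horizontal axis, bp) for the 5 network genes, with exons as grey boxes and E-box matches as triangles. The filled circle 87 bp upstream of mdl-1, at 34.4, is the final-set peak and lies above the dotted line, the lowest nuclear final-set signal of 29.4; the other 15 peaks lie below it.

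mdl-1 (WBGene00003163, chromosome X, 6742351 to 6743899, plus strand, 3 exons) encodes the Mad-like factor and held the strongest peak of the network. The promoter peak spanned 6742104 to 6742423 with a summit lying 87 bp before the annotated 5′ end, a pooled signal of 34.4 and the highest −log10 q-value of the pooled list, 2.69. Many peaks shared that value, which was also the median of the final set, so it does not single out this peak. It ranked 107 in the pooled list, 81 of the 147 nuclear final-set peaks and 32 of the 50 on the X chromosome. Signals of nuclear final-set peaks ran between 29.4 and 94.2, so it stood near the middle of that set by rank. No other protein-coding gene began near it: the closest 5′ end, that of R03E9.2, lay 8963 bp away.

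The 3 replicate lists each had an entry at this promoter. Its signal was 15.3 at rank 93 in replicate 1, 8.40 at rank 296 in replicate 2 and 18.2 at rank 175 in replicate 3. The replicate summits lay 59, 13 and 48 bp from the pooled summit. The −log10 q-values were 2.97, 2.83 and 2.95, the highest of each list, although by signal the peak was not the strongest in any of them. All 3 replicates therefore placed the peak among their 1000 strongest entries. A summit within 100 bp in every replicate list was found for 2.57% of nuclear pooled peaks and for 53.1% of nuclear final-set peaks. The bases within 100 bp of this summit were 59.2% G or C, higher than at 99.7% of nuclear pooled peaks, and the part of base composition in the signal was not tested.

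The intron 2 peak of mdl-1 (6742869 to 6743188, 678 bp past the 5′ end) was the second strongest of the network, with a pooled signal of 26.2, a −log10 q-value of 2.02 and rank 265, below the final set. Replicate 3 had its summit 30 bp away with a signal of 10.8 at rank 1364, and replicate 2 had its summit 83 bp away with 3.32 at rank 9545. Replicate 1 had no summit within 100 bp but had an entry on each side, 539 bp past the 5′ end at rank 1108 and 791 bp past it at rank 960. Each replicate thus had signal in this part of the gene, with summits that did not coincide. The peak 642 bp past the 3′ end, inside the non-coding RNA gene R03E9.7, had a pooled signal of 17.2 at rank 1366. It was found in all 3 replicates, at ranks 16005, 1121 and 3809 in replicates 1, 2 and 3, so replicate 1 placed it far lower. The peaks 1118 bp upstream (signal 13.7, rank 3350) and 1231 bp past the 5′ end in exon 3 (signal 12.3, rank 4985) had no replicate summit within 100 bp.

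mxl-1 (WBGene00003509, chromosome V, 11244839 to 11245926, plus strand, 2 exons) encodes the Max-like partner of MDL-1 and had neither a final-set peak nor a peak shared by the replicates. Its stronger peak, 327 bp upstream (11244352 to 11244671), had a pooled signal of 13.2 at rank 3918 and lay in the annotated 3′ UTR of the neighbouring gene pgap-1. Only replicate 2 had it, 40 bp away, with a signal of 6.41 at rank 1041. Replicate 1 had 0 entries in the whole gene window. The other peak, 995 bp past the 3′ end, had a pooled signal of 11.1 at rank 7242 and was found only in replicate 3, 52 bp away at rank 5341. It lay nearer to the 5′ end of mam-4, at 1225 bp, than to that of mxl-1, at 2082 bp. Each peak of the Max-like partner gene was thus found in a single and different replicate list. The share of each replicate in the pooled signal was not measured.

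mxl-3 (WBGene00003511, chromosome X, 13349639 to 13350804, minus strand, 4 exons) encodes the other Max-like factor and had 5 pooled peaks of moderate signal, with summits between 672 bp upstream and 1530 bp past its 5′ end. The peak past its 3′ end (13349114 to 13349433) was the strongest, with a pooled signal of 18.9, a −log10 q-value of 1.51 and rank 955. Replicate 3 had it 26 bp away with a signal of 13.8 at rank 488, whereas the nearest summits of replicates 1 and 2 lay 156 and 212 bp away. The peak 135 bp upstream (13350779 to 13351098) had a pooled signal of 16.3 at rank 1662. It was found in replicate 3, 21 bp away with a signal of 13.6 at rank 534, and in replicate 1, 42 bp away with a signal of 4.18 at rank 12896. Replicate 3 had both of these mxl-3 peaks among its 1000 strongest entries, and no other replicate did. Replicate 2 had another entry that strong inside the gene, 917 bp past the 5′ end, with a signal of 7.61 at rank 486. That entry lay 204 bp from the nearest pooled summit and so matched no pooled peak.

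The remaining mxl-3 peaks were weaker. The one 672 bp upstream, in the non-coding RNA gene C49F8.8, had a pooled signal of 13.03 at rank 4079 and was found in replicates 2 and 3, at ranks 2589 and 14550. The one in intron 3 had a pooled signal of 10.7 at rank 8408 and was found in the same replicates, at ranks 2680 and 29037, the last close to the end of a list of 30000. The one in the 3′ UTR part of exon 4 had a pooled signal of 12.1 at rank 5423 and no replicate summit within 100 bp. None of the 5 peaks of mxl-3 had a summit within 100 bp in all 3 replicates. The strongest, past the 3′ end, had one in 2 replicates at 200 bp, and its interval shared a base with an entry of all 3. The intron 3 peak had one in all 3 at 200 bp, the nearest summit of replicate 1 lying 134 bp away.

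mml-1 (WBGene00003378, chromosome III, 7370130 to 7374731, minus strand, up to 11 exons) encodes the Mondo factor and had 3 pooled peaks, each found in 1 replicate. The strongest, in exon 6 and 3060 bp past the 5′ end, had a pooled signal of 11.8 at rank 5942 and was found in replicate 2, 45 bp away at rank 4821, while the nearest summit of replicate 1 lay 104 bp away. The peak 1896 bp upstream (7376467 to 7376786) had a pooled signal of 8.24 at rank 17202 and was found in replicate 1, 3 bp away at rank 7160. The peak 670 bp past the 3′ end had a pooled signal of 7.92 at rank 18963 and was found in replicate 3 at the same base, at rank 5771. That last peak lay inside T20B12.4 and nearer to its 5′ end, at 1750 bp, than to that of mml-1. No pooled peak lay near the 5′ end of mml-1 itself, where replicate 1 had an entry 261 bp upstream at rank 16779 and replicate 2 one 213 bp upstream at rank 14129.

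mxl-2 (WBGene00003510, chromosome III, 186949 to 188131, minus strand, 4 exons) encodes the Mlx-like partner of MML-1. It held the weakest pooled signal of the network in this window, and the nearest pooled peak left out, 2910 bp upstream, had 10.7. Its single peak, in exon 4 and 982 bp past the 5′ end, had a pooled signal of 7.30, a −log10 q-value of 0.0292 and rank 22638 of 24897. None of the 3 replicates had a summit within 100 bp. Replicates 1 and 2 had 2 entries each elsewhere in the window and replicate 3 had 0. The stronger entry of replicate 1, 1670 bp upstream, had a signal of 6.59 at rank 3690. In that list it stood above the strongest entries at mml-1 (6.51, rank 3826) and mxl-3 (6.13, rank 4722). Neither the Max-like partner of the Mad gene nor the Mlx-like partner of the Mondo gene therefore had a peak like that at mdl-1.

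Across the 16 peaks, 2 were found in all 3 replicates, both at mdl-1, beside 2.57% of all nuclear pooled peaks. Another 4 were found in 2 replicates, 6 in 1 replicate and 4 in none, levels for which no such share is given. Replicate 1 had 4 of the 16, replicate 2 had 7 and replicate 3 had 9, against 33.1%, 20.1% and 46.0% of all nuclear pooled peaks. In the other direction, the replicate lists had 46 entries in the 5 gene windows, of which 20 had a pooled summit within 100 bp. The final set took in 1 of the 16 peaks, beside 0.591% of nuclear pooled peaks. The largest distance at which a replicate summit was counted as found was 85 bp. The window set which peaks counted: the farthest upstream summit inside lay 1896 bp from mml-1 (signal 8.24) and the nearest left out 2206 bp from it (signal 7.04). Past the 3′ ends, the farthest inside lay 995 bp from mxl-1 (signal 11.1) and the nearest left out 1329 bp from mdl-1 (signal 11.3).

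**Figure D2:**
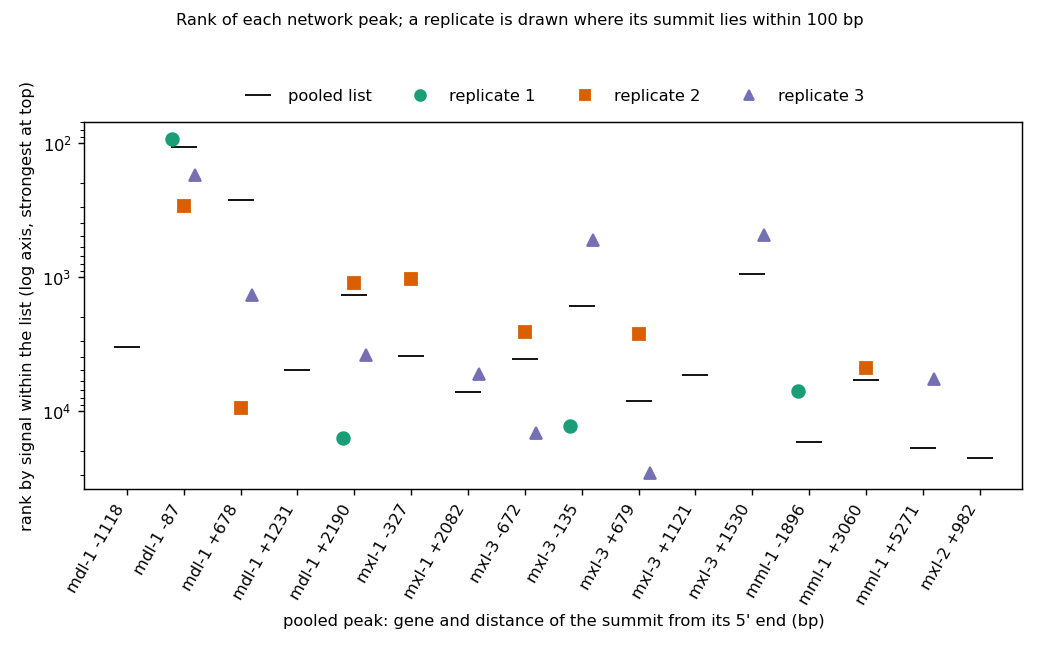
Rank by signal within each list (vertical axis, log scale, strongest at the top) for the 16 pooled peaks of the network (horizontal axis, gene and distance of the summit from the 5′ end in bp), with a dash for the pooled list and a symbol for each replicate that has a summit within 100 bp. The promoter peak of mdl-1 is the only one whose dash and 3 symbols all lie above rank 1000, at 107, 93, 296 and 175.

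Peaks were dense at the 2 X-linked genes. mdl-1 had 1.10 pooled peaks per kb of its 4549 bp window and mxl-3 had 1.20 per kb, against a median of 0.229 and a mean of 0.270 over all nuclear protein-coding genes, more than 99.3% and 99.7% of them. mxl-1 had 0.489, mml-1 0.395 and mxl-2 0.239 peaks per kb. On the X chromosome as a whole, 77.9% of its 2731 protein-coding genes had a pooled peak, and 8.13% had 5 or more, against 6.01% of autosomal genes. Among X-linked genes alone, the densities at mdl-1 and mxl-3 were above those of 99.4% and 99.6% of genes. Both densities were therefore high for their own chromosome, and they include peaks that no replicate list placed at the same spot, 2 at mdl-1 and 1 at mxl-3.

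The E-box, the site that Max family pairs bind, was searched within 150 bp of each summit. It reads the same on both strands. It occurred at 6 of the 16 network peaks (37.5%), against 5.85% of all nuclear pooled peaks, 6.80% of nuclear final-set peaks and 5.82% of windows from 250 bp before to 50 bp after each 5′ end. The peaks of one gene share a locus, so the 6 come from only 3 genes, mdl-1, mxl-3 and mml-1, and were not independent: 3 lie at mdl-1, 2 at mxl-3 and 1 at mml-1. None of the 3 peaks of mxl-1 and mxl-2 had it. A match describes these letters in this window and is no measurement of binding by any network protein.

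E-boxes were also counted over each whole gene window, a count that was added after the matches at the peaks had been seen. mdl-1 held 8 in 4549 bp, or 1.76 per kb, against a median of 0.156 and a mean of 0.185 per kb over all nuclear protein-coding genes. Only 6 other genes had as many or more per kb. Of the 8, 6 lay upstream, at 1266, 1105, 1044, 655, 540 and 123 bp before the 5′ end, 1 lay 633 bp past it in the gene and 1 lay 1688 bp past it, beyond the 3′ end. Of these 8, 5 were within 150 bp of a pooled summit: 148, 13 and 74 bp from the upstream summit, 36 bp from the promoter summit and 45 bp from the intron summit. The upstream peak printed above, with 2 E-boxes in capitals, was found by no replicate within 100 bp, while the promoter peak with 1 was found by all 3.

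The other genes had fewer. mxl-3 held 2 E-boxes in its window (0.480 per kb), 5 bp from the summit 672 bp upstream and 93 bp from the summit in exon 4. mml-1 held 3 (0.395 per kb), and those at 1966 and 1827 bp upstream flanked the summit 1896 bp upstream almost evenly, at 70 and 69 bp. mxl-2 held 1, 1713 bp upstream and far from its peak, and mxl-1 held 0. At least 1 E-box was present in 58.9% of all nuclear protein-coding gene windows, so the single match at mxl-2 is common. The strongest mxl-3 peak, the sixth sequence above, had neither an E-box nor any of the other motifs searched within 150 bp of its summit, except a run of A or T 112 bp away, which lies outside the printed bases.

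The other motifs were mostly near their share over all pooled peaks. GAGAGA occurred at 4 of the 16 network peaks (25%), 3 of them at mdl-1, against 21.3% of nuclear pooled peaks, 21.8% of promoter windows and 50.3% of nuclear final-set peaks. CCTGCG occurred at 1, the promoter of mdl-1, against 3.78% of nuclear pooled peaks, 3.19% of promoter windows and 15.6% of nuclear final-set peaks. GTAAACA, the element bound by the insulin pathway factor DAF-16, occurred at 2, both at mxl-3, against 3.72% of nuclear pooled peaks and 4.77% of promoter windows. CTTATCA, the DAF-16 associated element, occurred at 0, against 6.31% and 9.19%. CACGCG, an E-box variant by 1 letter, occurred at 1, against 4.32% and 4.80%. Runs of at least 8 letters that are each A or T are the kind of sequence AT-hooks contact. Such a run occurred at 14 of the 16 network peaks. The share was 89.0% of nuclear pooled peaks, 77.6% of nuclear final-set peaks and 95.98% of promoter windows. The promoter and exon 3 peaks of mdl-1 had none. All motifs were read on both strands. Matches of different motifs can share letters, and each motif was counted on its own.

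**Figure D3:**
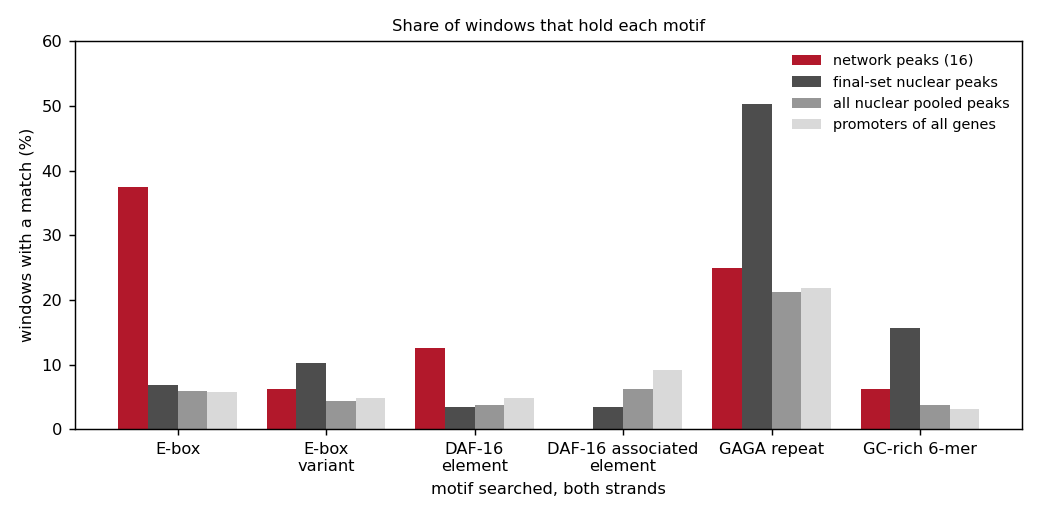
Share of windows with at least 1 match (vertical axis, %) for 6 motifs, in the 16 network peaks, nuclear final-set peaks, all nuclear pooled peaks (150 bp to each side of the summit) and promoter windows. The E-box stands at 37.5% in network peaks against 6.80%, 5.85% and 5.82% in the other sets; the GAGA repeat stands at 25%, against 50.3% in final-set peaks.

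Base composition varied among the 16 peaks, with 26.4% G or C at the mxl-3 exon 4 peak and 59.2% at the mdl-1 promoter peak. The median was 40.5%, against 37.3% over all nuclear pooled peaks. The strongest peaks of the other genes had 35.8% at mxl-3, 31.8% at mxl-1, 45.8% at mml-1 and 49.8% at mxl-2. The weakest peak of the network, at mxl-2, thus had a G and C content below only that of the strongest.

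The promoter peaks most like that of mdl-1 in the 3 replicates were picked by the distance between log2 signals, over 35 final-set promoter peaks of 45 genes that were found in every replicate. The nearest was 246 bp upstream of wrt-3, a warthog gene related to hedgehog, with signals of 17.2, 11.1 and 18.0 in replicates 1, 2 and 3, at a distance of 0.43. The next was a single peak, at a distance of 0.64, that lay 374 bp upstream of rpl-15, a gene for a large ribosomal subunit protein, and 440 bp upstream of K11H12.8. Its signals were 16.02, 11.9 and 24.0. These signals are in each list's own units, as were the 15.3, 8.40 and 18.2 at mdl-1.

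Genes known to act with the network were listed as 8 partners and regulators. All 8 had a pooled peak and 1 had a final-set peak, against 72.7% and 1.03% of all nuclear protein-coding genes. Their windows ran between 5023 and 29206 bp, against a median of 5027 bp over those genes. Their strongest signals had a median of 13.8 (range 9.97 to 38.1), against 13.2 for the 5 network genes and 10.8 for all genes with a pooled peak. The final-set peak was at daf-16, the FOXO factor of the insulin pathway, of which mdl-1 is a known target. It had a signal of 38.1 at rank 80 and replicate ranks of 156, 142 and 6365, and it lay 19493 bp into a gene whose window spans 29206 bp and holds 17 peaks. hlh-30, whose TFEB-like product acts opposite MXL-3 on lipase genes, reached 23.2 at rank 420 and was found in all 3 replicates, at ranks 1315, 250 and 1824, within a window of 23159 bp with 13 peaks. sin-3, for a corepressor that Mad proteins recruit in mammals, reached 15.7 and was found in replicate 3 only.

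Lysosomal lipase genes, a group that includes known targets of MXL-3 and HLH-30, had no final-set peak. All 8 of the listed genes had a pooled peak, against 72.7% of all nuclear protein-coding genes with a pooled peak and 1.03% with a final-set peak. Their median strongest signal was 13.3 (range 10.9 to 28.6), and all 8 were above the median of 10.8 over all genes with a pooled peak, the lowest only slightly. lipl-2 was the highest, with a peak 1522 bp upstream at 28.6 and rank 187, found in all 3 replicates at ranks 953, 5617 and 1289. lipl-5 reached 17.2 at 92 bp past its 5′ end and lipl-6 reached 16.99 past its 3′ end, each found in replicates 1 and 3. The strongest peaks of the remaining lipases were each found in 1 replicate or in none. By pooled signal alone the listed lipases thus stood above the median of all genes with a pooled peak but below the level of mdl-1.

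Other genes for basic helix-loop-helix proteins formed the last list, which overlaps that of partners and regulators. Of 36 listed, 23 had a pooled peak and 13 had none, against 72.7% of all nuclear protein-coding genes with one. A final-set peak was held by 1, against 1.03% of all nuclear protein-coding genes. Their median strongest signal was 10.2 (range 7.13 to 34.03), and 9 were above the median of all genes with a pooled peak. The final-set peak fell to hlh-33, with a signal of 34.03 at rank 110 and replicate ranks of 707, 585 and 296. It lay past the 3′ end of that gene and 141 bp upstream of ddp-1, a gene for a mitochondrial import protein. It also lay 682 bp upstream of ttc-7, so by position it is a promoter peak of ddp-1 and ttc-7. The second strongest of this list was hlh-30, described above and in both lists, at rank 420. hif-1, for the hypoxia factor, came next at rank 434, reached 23.2 at 1895 bp upstream and was found in replicates 1 and 3. Among the network genes and these 36, mdl-1 was thus the only one with a final-set peak at its own promoter.

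**Figure D4:**
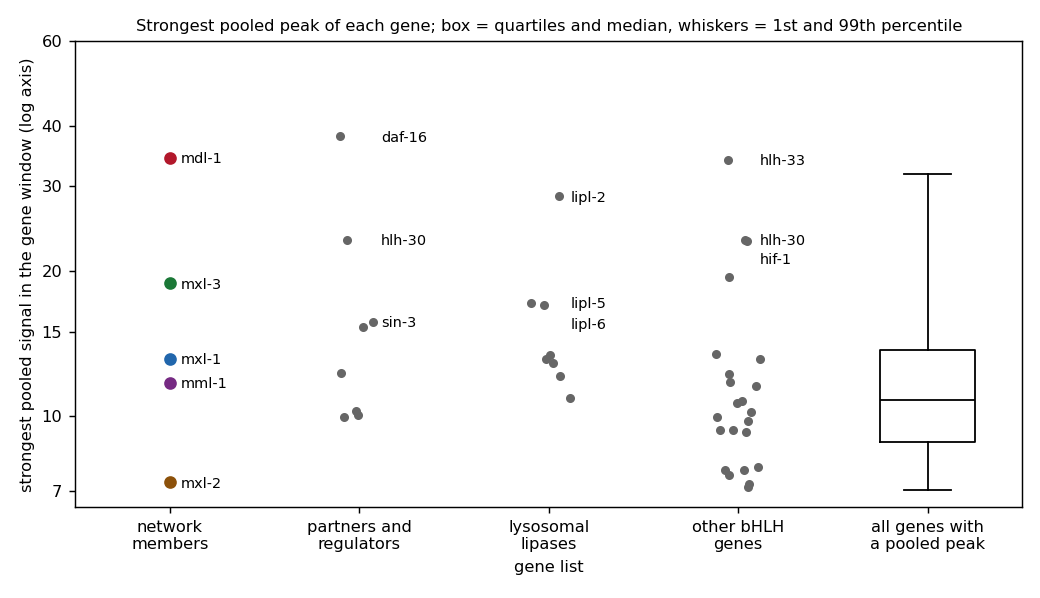
Strongest pooled signal in the gene window (vertical axis, log scale, authors' units) for the 5 network genes, for the listed genes with a pooled peak and for all 14523 genes with a pooled peak (box: quartiles and median; whiskers: 1st and 99th percentile). mdl-1 at 34.4 stands with daf-16 at 38.1 and hlh-33 at 34.03, and mxl-2 at 7.30 lies near the lower end of all genes.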

How the data were processed

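Peak lists on ce11 were used; those on ce10 were not used here. The signal per peak and the −log10 q-value are deposited as the authors' peak caller wrote them. Per the notes deposited with the files, a control entered every list: a replicate list came from that replicate's alignment, the pooled list from the 3 together. The irreproducible discovery rate between these lists gave the final set. The name of the aligner or caller is not given in the sources used here. Read numbers are absent from a peak list, so the depth is unknown and no interval is given. Summits, genes (Ensembl release 115, WBcel235) and replicate matches (100 bp) were computed with Python 3.11.15, numpy 2.4.6 and pandas 2.3.3, and the matching was tested on simulated data. No test was planned. Members and lists were chosen with earlier results of these data known. Named genes are the members, neighbours whose 5′ end is nearer to a member's strongest peak (there were 0), and in each list those with a final-set peak and the 3 strongest. The 3 genes whose promoter peak is most like that of mdl-1 are also named. The genes mam-4, T20B12.4, ddp-1, ttc-7 and those at or next to a member's peaks (R03E9.2, R03E9.7, pgap-1, C49F8.8) were named after their values were seen. The planned comparison of the members' proteins was not run.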

Additional observations from a re-analysis of the deposited data

How the results depend on the processing

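With a promoter window of 1000 bp upstream to 200 bp downstream, 3 genes had a pooled summit, with 4 pooled peaks, and mdl-1 kept its final-set peak. With the gene body alone there were 6 pooled peaks and 0 genes with a final-set summit, and with only the final-set peaks above that set's median signal there were also 0. With 5000 bp upstream, all 5 genes had a pooled summit, with 24 pooled peaks and 1 final-set gene. The number of peaks found in every replicate list was 1 at 50 bp, where replicate 1 no longer matched the mdl-1 promoter, 4 at 200 bp, 6 with any shared base, the strongest mxl-3 peak among them, and 1 among the 1000 strongest entries, the mdl-1 promoter. Leaving out each replicate in turn gave 2 to 5, the highest without replicate 1. Such a count cannot fall below the 2 peaks found with all replicates, so its lower end was fixed in advance. The shares of all genes or of all pooled peaks under these other settings are not given here. Whether these counts are usual can therefore not be said. Of the other values, percentiles of signal moved most, and that of mxl-2 became 42.5 with 5000 bp upstream. No paired analysis was possible because there is 1 group. Causes were not tested.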
